A study of Mus musculus with 4 samples.

Results

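The genes of heterotrimeric G protein subunits and of the regulators of G protein signalling (RGS proteins) were followed in the olfactory bulb of mouse pups in which Sp8 and Sp9 were both deleted from the interneuron lineage. Members were all rows of the deposited table whose symbol names a Gα subunit (Gna), a Gβ subunit (Gnb1 to Gnb5), a Gγ subunit (Gng) or an RGS protein (Rgs with a number), leaving out Gnal, Gng13 and Rgs5. This gave 49 of 20032 genes, namely 14 Gα, 5 Gβ, 11 Gγ and 19 RGS genes. Levels are in FPKM, fragments scaled to transcript length and to the mapped fragments of the library, so levels of different genes can be set side by side per length. A mean over all libraries of 1 FPKM or more was reached by 40 members, which were tested within a fit over 13434 genes.

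Bulbs of 2 DCKO (Sp8/Sp9 double conditional knockout) samples and of 2 littermate control samples were taken at postnatal day 11, and total RNA was sequenced. The DCKO mice carried Sp8 Flox/Flox, Sp9 Flox/Flox and Dlx5/6-CIE, a transgene that drives Cre from a Dlx5/6 enhancer active in GABAergic precursors of the forebrain. The controls carried no Cre, and the labels do not list their Flox alleles. Both groups shared a mixed background of C57BL/6J, 129S6 and CD1. Whether replicates of one genotype came from separate animals or pools is not in the labels, so a p-value here covers the spread among these samples alone, which may be technical. The deleted genes encode zinc finger transcription factors, and projection neurons and vessels of the bulb arise outside the Dlx5/6 lineage.

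A heterotrimeric G protein passes a signal from a receptor in the cell membrane to enzymes and channels inside the cell. An activated receptor loads the Gα subunit with GTP, Gα then separates from the paired Gβ and Gγ subunits, and both parts act on effectors. RGS proteins speed up the hydrolysis of GTP by Gα and so shorten the signal. In the olfactory bulb, G proteins serve metabotropic glutamate, GABA-B, dopamine, muscarinic and peptide receptors of interneurons and projection neurons.

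The scaled fragment counts summed to between 14632502 and 15400982 per library. Log2 levels correlated with Pearson's r of 0.986 within DCKO and 0.982 within controls, against 0.932 to 0.944 across genotypes, all across genes, which are not independent replicates. Sp8 stood at 1.68 and 2.03 FPKM in DCKO and 32.0 and 26.7 FPKM in controls, and Sp9 at 0.0674 and 0.236 FPKM in DCKO and 24.0 and 30.7 FPKM in controls, and every DCKO value of the targeted genes was below every control value. All 9 granule cell markers and 5 of 6 neuroblast markers fell in DCKO. The granule cell list includes Gad1 and Slc32a1, which other GABAergic neurons also express. All 7 mitral and tufted cell markers, 5 of 6 astrocyte and 5 of 7 microglia markers rose. So did 3 of 6 blood and 2 of 7 endothelial and mural markers. Of the striatal list, which shares Rgs9 with the members, 1 of 5 tested genes rose and 1 fell, and of 4 tested cortical genes 1 rose. Of 6 oligodendrocyte lineage and 6 olfactory sensory neuron markers 0 passed by limma, although the oligodendrocyte sum ranged from 498.5 to 895.5 FPKM within DCKO. Control replicate 1 stood apart in genes of olfactory sensory neurons, whose axons end in the bulb. There Omp reached 98.4 FPKM, against 20.1 FPKM in control replicate 2 and 31.5 and 20.3 FPKM in DCKO, and Cnga2 reached 10.2 FPKM, against 0.206 to 0.303 FPKM in the other libraries. No marker of any list was at 0 in any library, and the part of these cell types in the changes given below was not tested.

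Of the 40 tested members, 12 rose and 5 fell in DCKO at a limma adjusted p below 0.05, and 27.3% of all tested genes passed in either direction. The members' shares were 30.0% higher and 12.5% lower, beside 13% and 14.3% of all 13434 tested genes. The median log2 change of the members was 0.15, against -0.0157 over all tested genes, and the median size of the change was 0.37 against 0.23. The groups did not overlap for 31 of the 40, and 71.5% of all tested genes shared that property. The 40 include Gna15, Gng8 and Rgs14, which reached the filter through libraries of a single genotype. The largest decrease was in Gng4 and the largest increase in Gng7, both Gγ subunits. In whole-bulb RNA, fewer cells of a type and less RNA per cell cannot be told apart. Fewer members passed as higher in DCKO when either control replicate was left out, and the same held for all tested genes. In every value given without a library, the gene's own spread came from the intact pair of the other genotype. The limma fit combined it with the spread of all tested genes and took it to hold for the single library left. Of the 17 called members, 10 passed under each of the 13 alternatives tried, and 0 changed sign.

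**Figure D1:**
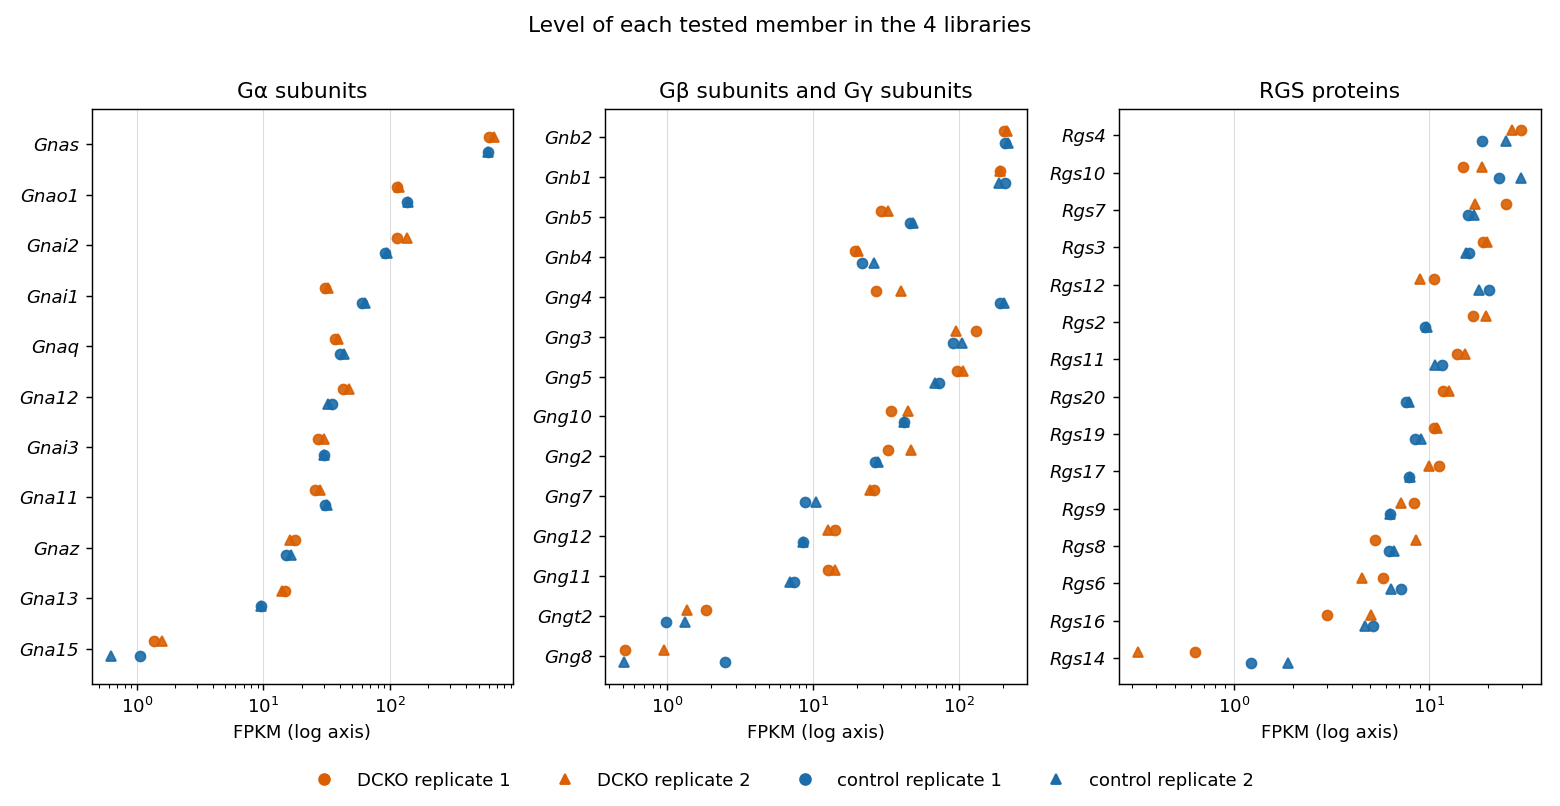
Level of the 40 tested members in FPKM on a log axis, ordered by mean level within each family, with DCKO libraries drawn above control libraries for each gene and replicates as circles and triangles. Gnas, Gnb2 and Gnb1 sat highest, and Gng4 showed the widest gap between genotypes, at 27.0 and 40.0 FPKM in DCKO against 189.7 and 201.7 FPKM in controls.

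**Figure D2:**
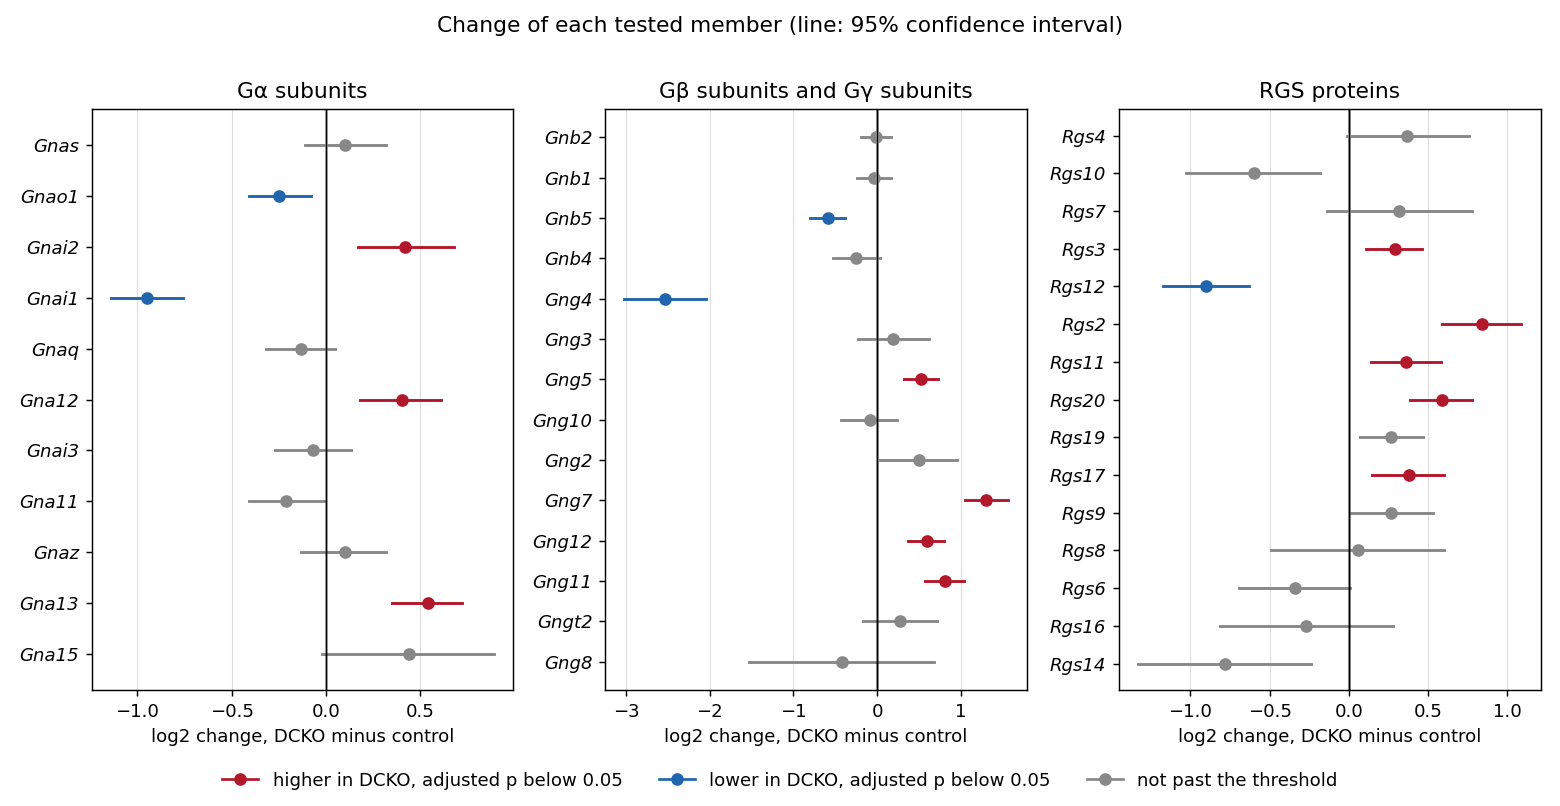
Change of the 40 tested members as DCKO minus control on the log2(FPKM + 1) scale, with lines for the 95% confidence interval of the limma fit. The horizontal scale differs between panels. The 12 genes that rose are red, the 5 that fell are blue, and grey genes did not pass the threshold.

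The promoters of the members with the largest changes are printed here for the 3 that fell most and for 2 that rose most among members with an entry in the RefSeq table (GRCm38.p6). Each window runs from 250 bases before to 50 after the transcript start, 5′ to 3′ on the gene's strand, and capitals mark matches to the GC box, the motif that Sp family zinc fingers are known to bind, searched as GGGCGG and as its reverse complement CCGCCC. Gng4 has 2 listed starts, whose windows overlap, and the first listed start is shown for the others.
Gng4, first start, chr13:13783809-13784108, + strand: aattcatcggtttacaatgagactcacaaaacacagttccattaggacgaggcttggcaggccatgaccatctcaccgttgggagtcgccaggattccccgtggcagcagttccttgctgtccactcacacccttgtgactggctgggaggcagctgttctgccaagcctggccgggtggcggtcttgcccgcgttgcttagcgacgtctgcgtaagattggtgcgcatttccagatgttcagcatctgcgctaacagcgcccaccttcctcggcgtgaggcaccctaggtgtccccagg
Gng4, second start, chr13:13784057-13784356, + strand: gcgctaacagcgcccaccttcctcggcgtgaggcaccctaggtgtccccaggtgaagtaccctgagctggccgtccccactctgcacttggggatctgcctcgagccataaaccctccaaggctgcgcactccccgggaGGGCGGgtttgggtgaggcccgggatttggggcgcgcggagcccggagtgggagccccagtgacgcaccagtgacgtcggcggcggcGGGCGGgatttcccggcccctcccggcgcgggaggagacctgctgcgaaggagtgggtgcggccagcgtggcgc
Gnai1, chr5:18360364-18360663, - strand: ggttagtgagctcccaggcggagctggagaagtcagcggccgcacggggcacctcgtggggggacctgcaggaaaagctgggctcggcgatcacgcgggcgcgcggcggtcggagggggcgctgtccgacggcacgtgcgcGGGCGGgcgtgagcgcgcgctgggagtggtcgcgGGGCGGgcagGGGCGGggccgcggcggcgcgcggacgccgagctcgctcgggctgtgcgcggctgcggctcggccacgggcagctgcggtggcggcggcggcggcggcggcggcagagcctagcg
Rgs12, first of 2 starts, chr5:34949198-34949497, + strand: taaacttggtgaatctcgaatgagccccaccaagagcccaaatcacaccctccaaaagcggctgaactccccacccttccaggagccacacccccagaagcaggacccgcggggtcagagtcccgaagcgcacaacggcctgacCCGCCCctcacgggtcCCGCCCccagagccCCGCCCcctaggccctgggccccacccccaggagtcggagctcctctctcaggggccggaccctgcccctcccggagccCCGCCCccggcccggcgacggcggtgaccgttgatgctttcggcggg
Gng7, first of 2 starts, chr10:81014876-81015175, - strand: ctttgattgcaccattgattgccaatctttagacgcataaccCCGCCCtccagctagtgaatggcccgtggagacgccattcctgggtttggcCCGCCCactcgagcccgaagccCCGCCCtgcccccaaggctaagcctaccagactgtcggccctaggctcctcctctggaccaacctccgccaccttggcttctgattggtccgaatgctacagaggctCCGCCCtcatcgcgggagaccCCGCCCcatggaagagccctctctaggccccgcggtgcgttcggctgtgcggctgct
Rgs2, chr1:144004100-144004399, - strand: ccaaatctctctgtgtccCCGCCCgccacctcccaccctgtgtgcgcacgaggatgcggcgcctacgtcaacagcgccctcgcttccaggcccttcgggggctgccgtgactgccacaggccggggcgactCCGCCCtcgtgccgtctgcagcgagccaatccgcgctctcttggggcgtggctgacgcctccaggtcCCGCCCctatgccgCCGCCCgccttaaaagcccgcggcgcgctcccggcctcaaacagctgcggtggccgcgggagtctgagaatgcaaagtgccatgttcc

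Matches were present in windows of genes that fell and of genes that rose. There were 0 in the first and 2 in the second Gng4 window, 3 in Gnai1, 4 in Rgs12, 5 in Gng7 and 4 in Rgs2. Counting the first listed window of each gene, 19 of 32 tested members with an entry (59.4%) held the motif, against 65.7% of 9992 tested genes and 35.7% of all 32851 windows in the table. By call, it stood in 7 of 8 members that rose, 2 of 5 that fell and 10 of 19 that did not pass. These are matches of letters and do not show binding.

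The Gγ subunits, small prenylated proteins that anchor the Gβγ pair to the membrane, held the widest changes. Of 10 tested members, 4 rose and 1 fell (40.0% and 10.0%, against 13% and 14.3% of all tested genes). Their median log2 change was 0.38. Gng4 (GRCm38 chromosome 13, + strand, 13784059 to 13827896, protein-coding) was at 27.0 and 40.0 FPKM in DCKO and 189.7 and 201.7 FPKM in controls. Both DCKO libraries lay far below both controls, and the DCKO mean was 5.84-fold lower (log2 change -2.54, SE 0.19, 95% confidence interval -3.02 to -2.05, limma adjusted p = 0.00257). Beside it, the granule cell markers, a list without Gng4, summed to 89.7 and 125.2 FPKM in DCKO and to 662.7 and 629.7 FPKM in controls. The list includes 2 genes that other GABAergic neurons also express. These are Gad1, at 18.3 and 30.9 FPKM in DCKO and 195.0 and 135.0 FPKM in controls, and Slc32a1, at 11.7 and 15.5 FPKM in DCKO and 109.6 and 112.4 FPKM in controls.

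Gng7, a Gγ subunit known from striatal neurons, where it pairs with the olfactory type of Gα, went the other way. Its level was 26.2 and 24.4 FPKM in DCKO and 8.90 and 10.5 FPKM in controls (chromosome 10, 80948624 to 81014945, - strand). The DCKO libraries were close to each other and both above the controls, a 2.61-fold higher mean (log2 change 1.30, SE 0.10, 95% confidence interval 1.05 to 1.56, limma adjusted p = 0.00272). Gng11, which carries a farnesyl group where most Gγ subunits carry a geranylgeranyl group, stood at 12.6 and 14.2 FPKM in DCKO and 7.45 and 6.99 FPKM in controls (log2 change 0.81, SE 0.09, limma adjusted p = 0.00699). Gng12, a widely expressed subunit, was at 14.1 and 12.6 FPKM in DCKO and 8.57 and 8.55 FPKM in controls (log2 change 0.59, SE 0.08, limma adjusted p = 0.0117). Both genes were higher in each DCKO library than in each control. Gng5, another widely expressed subunit, read 96.6 and 106.4 FPKM in DCKO and 72.6 and 68.0 FPKM in controls (log2 change 0.52, SE 0.08, limma adjusted p = 0.0134). Its groups did not overlap either, but its call was lost without control replicate 2 (limma adjusted p = 0.0579). Over the same libraries the astrocyte markers summed to 810.9 and 761.0 FPKM in DCKO and 401.4 and 401.7 FPKM in controls. The mitral and tufted cell markers summed to 1621 and 1442 FPKM in DCKO and 743.8 and 810.8 FPKM in controls. Blood markers summed to 2231 and 3152 FPKM in DCKO and 840.0 and 522.8 FPKM in controls. Granule cell and neuroblast markers went the other way, and which cells carried the rise of these Gγ genes was not tested. The endothelial and mural markers summed to 159.4 and 160.3 FPKM in DCKO and 127.7 and 124.5 FPKM in controls. Most of the latter sum was Cldn5, at 122.8 and 119.5 FPKM in DCKO and 95.3 and 92.4 FPKM in controls. Only 2 of the 7 endothelial and mural markers passed. Among the mural ones, Kcnj8 was lower in both DCKO libraries and Abcc9 overlapped.

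The remaining 5 tested Gγ genes did not pass. Gng3, a neuronal subunit, read 129.7 and 95.3 FPKM in DCKO and 90.8 and 104.1 FPKM in controls, with overlapping groups (log2 change 0.19, 95% confidence interval -0.23 to 0.62). Gng2, common in brain, stood at 32.5 and 46.8 FPKM in DCKO and 26.6 and 28.1 FPKM in controls (log2 change 0.50, limma adjusted p = 0.0939), and DCKO replicate 2 was the high one. Its log2 change was 0.75 without DCKO replicate 1 (limma adjusted p = 0.0196) and 0.24 without DCKO replicate 2 (0.0849), so its size rested on which DCKO library was kept. Gng10 was at 34.3 and 44.5 FPKM in DCKO and 41.9 and 41.7 FPKM in controls, where the control pair lay between the DCKO libraries (log2 change -0.09). Its log2 change was 0.09 without DCKO replicate 1 and -0.28 without DCKO replicate 2 (limma adjusted p = 0.312 and 0.0495). Gngt2, the Gγ subunit of cone photoreceptors, was low throughout, at 1.86 and 1.37 FPKM in DCKO and 0.995 and 1.34 FPKM in controls. Gng8, known from olfactory and vomeronasal sensory neurons, reached 2.52 FPKM in control replicate 1, against 0.514 FPKM in control replicate 2 and 0.515 and 0.951 FPKM in DCKO. The high Gng8 library was also the one with the high Omp and Cnga2 levels. The log2 change of Gng8 was -0.42 with all libraries and 0.18 without control replicate 1. The gene reached the filter through that 1 control library, so no call is drawn from it.

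Summed over the 11 Gγ members, FPKM came to 375.5 and 386.7 in DCKO and 450.1 and 471.5 in controls. Gng4 made up 7.20% and 10.3% of that sum in DCKO and 42.2% and 42.8% in controls, where it was the most abundant Gγ mRNA. Among the members the most abundant in DCKO was Gng3 in replicate 1 (34.5%) and Gng5 in replicate 2 (27.5%). The Gγ members other than Gng4 summed to 348.4 and 346.7 FPKM in DCKO and 260.4 and 269.7 FPKM in controls, so the genotypes stood in the opposite order without it. Gng13, which the rule left out, was above both in DCKO, at 146.1 and 118.8 FPKM, against 144.0 and 68.0 FPKM in controls. With Gng13 counted, the share of Gng4 was 5.18% and 7.92% in DCKO and 31.9% and 37.4% in controls.

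**Figure D3:**
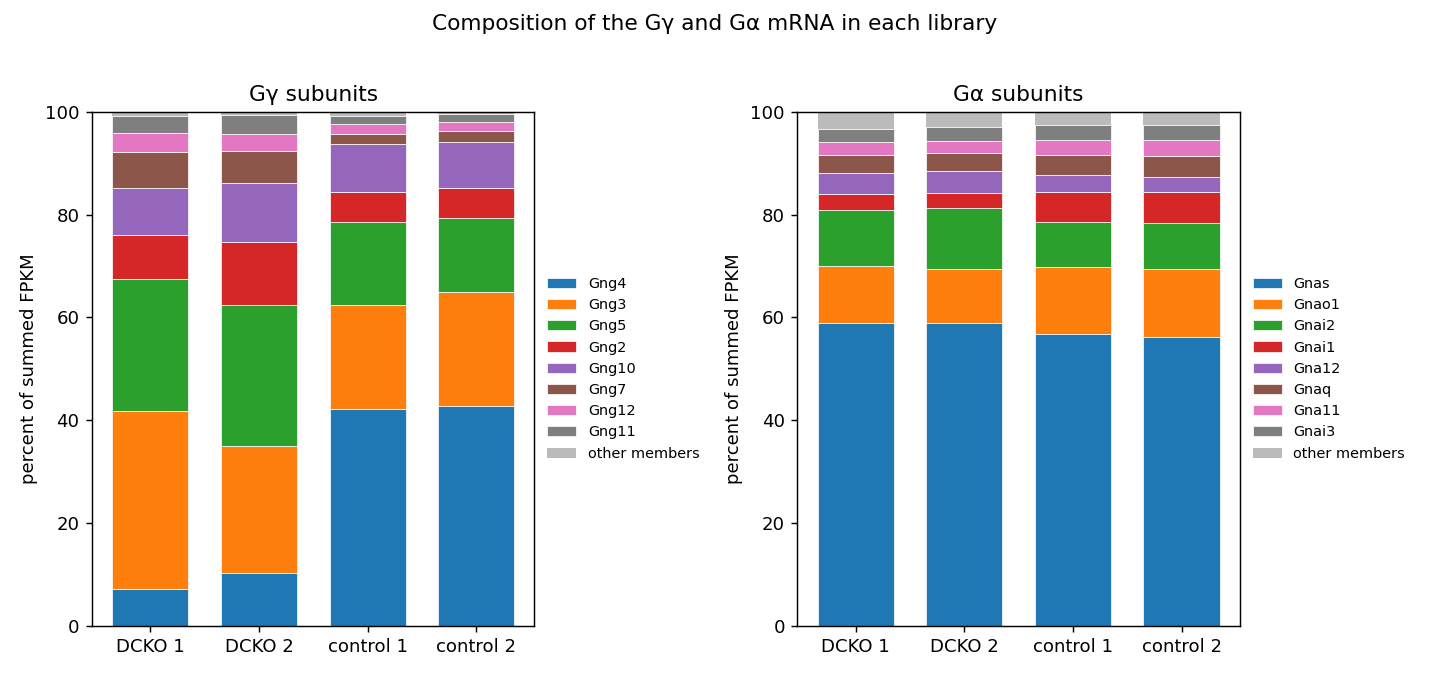
Share of each Gγ subunit (left) and each Gα subunit (right) in the summed FPKM of its family, one bar per library with DCKO on the left. Gng4 took 7.20% and 10.3% of the Gγ sum in DCKO and 42.2% and 42.8% in controls, while Gnas took 56.2% to 59.0% of the Gα sum in all 4 libraries.

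The Gα subunits decide which effectors a receptor reaches. Of 11 tested members, 3 rose and 2 fell (27.3% and 18.2%, against 13% and 14.3% of all tested genes). Their median log2 change was 0.10. In the Gi/o class, whose members inhibit adenylyl cyclase or release Gβγ onto channels, the genes moved in different directions. Gnai1 (chromosome 5, 18265135 to 18360355, - strand) stood at 30.4 and 32.5 FPKM in DCKO and 59.8 and 63.9 FPKM in controls. The DCKO libraries lay near each other and well below both controls, a 1.97-fold lower mean (log2 change -0.95, SE 0.07, 95% confidence interval -1.14 to -0.76, limma adjusted p = 0.00280). Gnai2, the most widely expressed inhibitory Gα and abundant in microglia, read 114.0 and 135.1 FPKM in DCKO and 90.9 and 93.8 FPKM in controls (log2 change 0.42, SE 0.10, limma adjusted p = 0.0370). Its groups did not overlap, and the call was lost without control replicate 1 (limma adjusted p = 0.116) or 2 (0.0981). The microglia markers summed to 132.5 and 140.7 FPKM in DCKO and 85.8 and 84.2 FPKM in controls, and 5 of the 7 passed. The groups overlapped for P2ry12, at 14.4 and 13.8 FPKM in DCKO and 14.7 and 14.1 FPKM in controls. They also overlapped for Tmem119, at 7.36 and 6.13 FPKM in DCKO and 7.58 and 6.00 FPKM in controls. Gnai3 did not pass, at 27.1 and 30.1 FPKM in DCKO and 30.1 and 30.2 FPKM in controls (log2 change -0.07, 95% confidence interval -0.27 to 0.13).

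Set against each other, the 3 inhibitory genes summed to 171.5 and 197.8 FPKM in DCKO and 180.8 and 187.9 FPKM in controls, with overlapping groups. Within that sum Gnai1 made up 17.7% and 16.5% in DCKO and 33.1% and 34.0% in controls, and Gnai2 made up 66.5% and 68.3% in DCKO and 50.3% and 49.9% in controls.

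Gnao1, the Gα that predominates in neurons, was at 113.8 and 118.1 FPKM in DCKO and 135.9 and 139.7 FPKM in controls (log2 change -0.25, SE 0.06, limma adjusted p = 0.0472). The DCKO pair lay below the control pair, but the call was near the threshold and was lost when any of the 4 libraries was left out (limma adjusted p of 0.0517 to 0.287) and on scaled counts, where the log2 change was -0.11. Gnaz, whose product is insensitive to pertussis toxin, read 17.9 and 16.2 FPKM in DCKO and 15.1 and 16.6 FPKM in controls, and its groups overlapped (log2 change 0.10, 95% confidence interval -0.13 to 0.32).

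The pair Gna12 and Gna13, which couple receptors to the cytoskeleton, both rose. Gna13 stood at 14.7 and 13.9 FPKM in DCKO and 9.55 and 9.59 FPKM in controls, with each pair close together (log2 change 0.54, SE 0.07, limma adjusted p = 0.00997). Gna12 was at 42.4 and 47.0 FPKM in DCKO and 35.0 and 32.4 FPKM in controls (log2 change 0.40, SE 0.08, limma adjusted p = 0.0281). The Gna12 call was lost without DCKO replicate 2 (limma adjusted p = 0.0612), control replicate 1 (0.0559) or control replicate 2 (0.127).

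The Gα genes of the stimulatory class and of the class that activates phospholipase C did not pass. Gnas, the stimulatory Gα gene, was the most abundant member, at 609.7 and 662.5 FPKM in DCKO and 589.8 and 593.1 FPKM in controls (log2 change 0.10, 95% confidence interval -0.11 to 0.32). Both DCKO values were the higher ones, by less than the fit could separate. Gnas is an imprinted locus with several starts and the antisense gene Nespas, which these values do not separate. Gnaq, which activates phospholipase C, read 36.8 and 39.0 FPKM in DCKO and 40.2 and 43.1 FPKM in controls (log2 change -0.13, limma adjusted p = 0.225). Gna11, its close relative, was at 25.5 and 28.0 FPKM in DCKO and 30.4 and 31.7 FPKM in controls (log2 change -0.21, limma adjusted p = 0.103). For both, the DCKO libraries were the lower ones. Gna15, the blood cell member of this class, stood at 1.36 and 1.57 FPKM in DCKO and 1.05 and 0.622 FPKM in controls (log2 change 0.44). It reached the filter through its DCKO libraries, so no call is drawn from it.

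The Gβ subunits form a propeller that holds Gγ. Of the 4 tested, 25.0% passed, against 27.3% of all tested genes in either direction. Gnb5, the divergent Gβ that pairs with R7 RGS proteins in place of a Gγ subunit, was the single member of 4 tested that passed. It stood at 29.3 and 32.8 FPKM in DCKO and 46.0 and 48.5 FPKM in controls (chromosome 9, 75306288 to 75345876, + strand). Both DCKO libraries were lower than both controls, a 1.52-fold lower mean (log2 change -0.59, SE 0.08, 95% confidence interval -0.80 to -0.38, limma adjusted p = 0.0108). The common subunits did not pass, with intervals on both sides of 0. Gnb1 was at 190.0 and 191.9 FPKM in DCKO and 206.3 and 187.3 FPKM in controls (log2 change -0.04, 95% confidence interval -0.24 to 0.16). Gnb2 was at 203.5 and 213.8 FPKM in DCKO and 205.2 and 215.0 FPKM in controls (log2 change -0.01, 95% confidence interval -0.19 to 0.17). Gnb4 read 19.3 and 20.5 FPKM in DCKO and 21.7 and 26.2 FPKM in controls, with the DCKO pair lower and no call (log2 change -0.25, limma adjusted p = 0.144).

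Of the 4 R7 RGS genes, whose proteins need Gnb5 for stability, 1 rose and 0 fell at the threshold of the limma fit. That is 25.0% in either direction, against 27.3% of all tested genes. Rgs11 rose, at 13.9 and 15.2 FPKM in DCKO and 11.6 and 10.7 FPKM in controls (log2 change 0.36, SE 0.08, limma adjusted p = 0.0366), although the call was lost when any library was left out (limma adjusted p of 0.0552 to 0.192). Rgs7, broadly expressed in brain, read 24.9 and 17.2 FPKM in DCKO and 15.8 and 17.0 FPKM in controls, with DCKO replicate 1 high (log2 change 0.32, limma adjusted p = 0.230). The log2 change of Rgs7 was 0.06 without DCKO replicate 1 (limma adjusted p = 0.577) and 0.57 without DCKO replicate 2 (0.0270). Rgs9, known from striatal neurons and photoreceptors, was at 8.41 and 7.15 FPKM in DCKO and 6.28 and 6.28 FPKM in controls (log2 change 0.27, limma adjusted p = 0.109). Rgs6 lay lower in DCKO, at 5.83 and 4.51 FPKM against 7.15 and 6.36 FPKM in controls, and did not pass (log2 change -0.34, limma adjusted p = 0.125). The 4 R7 genes summed to 53.0 and 44.0 FPKM in DCKO and 40.8 and 40.3 FPKM in controls. For every 100 FPKM of R7 genes there were 55.2 and 74.5 FPKM of Gnb5 in DCKO and 112.7 and 120.4 FPKM in controls, so the groups did not overlap in this ratio of mRNA levels.

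Of the 15 tested RGS genes as a whole, 5 rose and 1 fell (33.3% and 6.67%, against 13% and 14.3% of all tested genes). Their median log2 change was 0.27. The R12 class, of which Rgs12 and Rgs14 also bind inactive Gαi through a GoLoco motif, held the gene that fell. Rgs12 (chromosome 5, 34949445 to 35039644, + strand) stood at 10.6 and 9.01 FPKM in DCKO and 20.2 and 18.0 FPKM in controls. Its DCKO libraries were both far below the controls, a 1.95-fold lower mean (log2 change -0.90, SE 0.11, 95% confidence interval -1.17 to -0.63, limma adjusted p = 0.00748). Rgs10, a small RGS protein known from microglia and neurons, was at 15.0 and 18.7 FPKM in DCKO and 22.7 and 29.6 FPKM in controls (log2 change -0.60, 95% confidence interval -1.03 to -0.18, limma adjusted p = 0.0531). Rgs14 was at 0.634 and 0.322 FPKM in DCKO and 1.22 and 1.90 FPKM in controls (log2 change -0.78, limma adjusted p = 0.0522). In both genes each DCKO library was below each control. Rgs10 passed without control replicate 1 (log2 change -0.79, limma adjusted p = 0.0208) and did not without any of the other 3 libraries (0.0654 to 0.164), where its log2 change was -0.42 without control replicate 2. Rgs14, with a mean of 1.02 FPKM over the 4 libraries, reached the filter through its control libraries, so no call is drawn from it. With a library left out, its log2 change ranged from -0.98 to -0.59.

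In the R4 class, small RGS proteins that act on Gi/o and on the phospholipase C class, 2 of 5 tested genes rose. Among all tested genes 13% rose. Rgs2, which is selective for the phospholipase C class and is induced by neuronal activity, stood at 16.7 and 19.5 FPKM in DCKO and 9.52 and 9.74 FPKM in controls (chromosome 1, 143999338 to 144004161, - strand). Both DCKO libraries were above both controls, a 1.88-fold higher mean (log2 change 0.84, SE 0.10, 95% confidence interval 0.59 to 1.09, limma adjusted p = 0.00706). Rgs3 read 19.0 and 19.8 FPKM in DCKO and 16.1 and 15.4 FPKM in controls (log2 change 0.29, SE 0.07, limma adjusted p = 0.0397), and this call was lost when any library was left out (limma adjusted p of 0.0620 to 0.231).

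The other R4 genes did not pass. Rgs4, a neuronal regulator, was the most abundant RGS member on average, at 29.7 and 26.6 FPKM in DCKO and 18.6 and 24.8 FPKM in controls (log2 change 0.37, 95% confidence interval -0.01 to 0.76, limma adjusted p = 0.125). Its DCKO pair lay above the controls, which were far apart. The log2 change of Rgs4 was 0.17 without control replicate 1 (limma adjusted p = 0.404) and 0.57 without control replicate 2 (0.0339). Rgs8 was at 5.25 and 8.54 FPKM in DCKO and 6.24 and 6.61 FPKM in controls, and Rgs16 at 3.01 and 5.04 FPKM in DCKO and 5.18 and 4.69 FPKM in controls. For Rgs8 and Rgs16 the groups overlapped, and DCKO replicate 1 was the lowest of the 4 libraries. The log2 change of Rgs16 was -0.27 with all libraries, 0.03 without DCKO replicate 1 and -0.56 without DCKO replicate 2 (limma adjusted p = 0.373, 0.870 and 0.0453).

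In the RZ class, short proteins that act on Gi/o subunits including Gz, 2 of 3 genes rose, beside 13% of all tested genes. Rgs20, first described as a regulator of Gz, stood at 11.8 and 12.6 FPKM in DCKO and 7.65 and 7.88 FPKM in controls, with tight pairs that did not overlap (log2 change 0.59, SE 0.08, limma adjusted p = 0.00949). The Rgs20 locus overlaps Atp6v1h on the other strand, and reads of the 2 genes cannot be told apart there because the strand setting is not given in the sources used here. Gna12 overlaps Amz1 in this way, Rgs11 overlaps Arhgdig, Gng3 overlaps Bscl2, Gngt2 overlaps Abi3 and Gnaz overlaps Rsph14. Rgs17 was at 11.3 and 10.0 FPKM in DCKO and 7.89 and 8.02 FPKM in controls (log2 change 0.38, SE 0.09, limma adjusted p = 0.0347). Its call was lost without DCKO replicate 1 (limma adjusted p = 0.0760), control replicate 1 (0.145) or control replicate 2 (0.138). Rgs19, known as GAIP, was higher in both DCKO libraries, at 10.6 and 11.0 FPKM against 8.50 and 9.11 FPKM in controls, and missed the threshold (log2 change 0.27, limma adjusted p = 0.0605). Of the 13 alternatives, it passed under median-of-ratios (limma adjusted p = 0.0470) and quantile scaling (0.0436). It did not pass under the other 11, among them scaled counts (limma adjusted p = 0.0948).

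The 9 members below the filter were Gnat1, Gnat2, Gna14, Gnb3, Gngt1, Rgs1, Rgs13, Rgs18 and Rgs22. Most are known from photoreceptors, taste cells or blood cells. The highest of them was Rgs13, at 0.826 and 0.444 FPKM in DCKO and 0.241 and 0.134 FPKM in controls, where both DCKO values were the higher ones. Gngt1, the Gγ subunit of rod photoreceptors, was listed at 0 in all 4 libraries, and Rgs1, known from activated lymphocytes and microglia, was listed at 0 in all but DCKO replicate 1 (0.0611 FPKM). Just inside the filter were Rgs14, with a mean of 1.02 FPKM over the 4 libraries, and Gng8, with 1.12 FPKM, and just outside it Rgs13, with 0.411 FPKM. Rgs14 passed the filter through its control libraries, Gng8 through control replicate 1 and Gna15 through its DCKO libraries.

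Other genes of the pathway were taken from a list of 32 regulators and effectors, of which 31 had a row and 26 were tested. There, 3 rose and 4 fell (11.5% and 15.4%, against 13% and 14.3% of all tested genes), with a median log2 change of -0.06. The tested phospholipase C genes differed. Plcb4, at 17.2 and 14.7 FPKM in DCKO and 18.8 and 17.6 FPKM in controls, did not pass (log2 change -0.18, limma adjusted p = 0.215). Plcb1, an effector of Gq, was at 6.03 and 5.06 FPKM in DCKO and 19.2 and 19.6 FPKM in controls (log2 change -1.65, SE 0.10, limma adjusted p = 0.00160), while Plcb3 was at 10.9 and 9.33 FPKM in DCKO and 6.77 and 5.15 FPKM in controls (log2 change 0.68, limma adjusted p = 0.0296). Genes of GoLoco proteins, which hold Gαi in its inactive form, differed too, and the low Gpsm3 did not pass (log2 change 0.34, limma adjusted p = 0.133). Gpsm1 read 24.8 and 26.1 FPKM in DCKO and 69.7 and 73.4 FPKM in controls (log2 change -1.45, SE 0.07, limma adjusted p = 0.00105), while Gpsm2, which orients the spindle of dividing cells, read 16.8 and 17.4 FPKM in DCKO and 12.4 and 10.6 FPKM in controls (log2 change 0.54, limma adjusted p = 0.0187). For Plcb1, Plcb3, Gpsm1 and Gpsm2 the libraries of one genotype lay clear of those of the other.

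Gprin1, a partner of activated Gαo and Gαz in neurite growth, stood at 22.9 and 26.8 FPKM in DCKO and 56.4 and 59.4 FPKM in controls (log2 change -1.19, SE 0.10, limma adjusted p = 0.00303). Arhgef11, an effector of Gα12 and Gα13, was at 11.2 and 10.1 FPKM in DCKO and 13.5 and 13.9 FPKM in controls (log2 change -0.34, limma adjusted p = 0.0405). Snx13, a sorting nexin with an RGS domain, was at 20.0 and 20.7 FPKM in DCKO and 15.0 and 15.3 FPKM in controls (log2 change 0.40, limma adjusted p = 0.0160). The calls of Plcb1, Gpsm1 and Gprin1 held under all 13 alternatives. Those of the other 4 were each lost without control replicate 2, but not only there. Of the 13 alternatives, the call of Arhgef11 was lost under 8, Plcb3 under 4, Gpsm2 under 3 and Snx13 under 2. Receptor kinases and arrestins did not pass, among them Adrbk1, at 36.0 and 37.1 FPKM in DCKO and 36.2 and 37.5 FPKM in controls, and Arrb1, at 73.7 and 61.0 FPKM in DCKO and 50.2 and 53.0 FPKM in controls (limma adjusted p = 0.0596). The groups overlapped for Adrbk1, and both DCKO values of Arrb1 were above the controls.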

How the data were processed

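Per the labels' protocols, RNA was purified with RNeasy kits and checked for integrity. The submitters' processing notes name TopHat, Cufflinks 2.1.1 and the build GRCm38.p4. Annotation, multi-mapping and strand settings were not given in the sources used here, so overlapping and near-identical genes are uncertain. The authors deposited FPKM values and columns headed count, which are not whole numbers and were treated as a signal that the authors scaled per library, so no count model was used. Columns were matched to samples by the codes in the descriptions, and 0 were left unmapped.

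The difference of DCKO and control in log2(FPKM + 1) was tested two-sided by limma 3.58.1 (R 4.3.3), with its intensity trend, over the 13434 genes averaging 1 FPKM or more, with Benjamini-Hochberg adjustment over all of them and a threshold of 0.05. Fold changes on this scale understate the change of low genes; folds in the text are ratios of mean FPKM. The prior degrees of freedom were 2.91, and 5790 genes had an unadjusted p below 0.05. With 2 libraries per genotype, an exact permutation test of 1 gene cannot go below p = 0.333. The fit was also run on values simulated from its own variance model, a check of the code that cannot show that the model holds for these data.

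Coordinates are from GENCODE M21 (GRCm38), where all 49 members matched, and promoter windows from RefSeq, which held 36 of them. The members and lists were chosen with earlier results of these data known. Every member may be named, and full statistics go to called members and to the 2 of highest mean in each class. Alternatives covered the pseudocount (0.5 and 0.1), the filter (none and 5 FPKM), 2 scalings, no trend, a replicate block, library-scaled counts and each library left out.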

Additional observations from a re-analysis of the deposited data

How the results depend on the processing

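The 10 called members that passed under all 13 alternatives were Gna13, Gnai1, Gnb5, Gng4, Gng7, Gng11, Gng12, Rgs2, Rgs12 and Rgs20. The calls of Gna12, Gnai2, Gnao1, Gng5, Rgs3, Rgs11 and Rgs17 were lost under at least 1. The number of members that rose was 7 with no filter and 7 to 10 with a library left out, and the number that fell was 4 to 6. Without a library, 806 to 1384 of all genes rose and 1030 to 1875 fell, and 0 to 2 genes of the pathway list rose, against 5 with quantile normalization. The labels do not say whether equal replicate numbers pair the samples. The correlation of same-numbered deviations was -0.0211, which with 2 libraries per genotype cannot settle this. Under the replicate block 8 members rose and 5 fell. Signs turned among members that had not passed: with a library left out, log2 changes ranged from -0.15 to 0.00 for Gnai3, -0.11 to 0.03 for Gnb1, -0.05 to 0.03 for Gnb2, -0.28 to 0.09 for Gng10, -0.03 to 0.41 for Gng3, -1.03 to 0.18 for Gng8, -0.56 to 0.03 for Rgs16 and -0.25 to 0.36 for Rgs8. Gnb2 was also at 0.01 with median-of-ratios scaling and 0.07 on scaled counts. No scaling moved the median of all genes by more than 0.037. The causes were not tested. With 2 libraries per genotype, small differences such as that of Gnas were not detectable.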

Other observations

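The 3 genes that the rule left out did not pass the test. Gng13, a Gγ subunit of olfactory sensory neurons that pairs with Gnal in odour transduction, stood at 146.1 and 118.8 FPKM in DCKO and 144.0 and 68.0 FPKM in controls, and Gnal at 15.1 and 16.4 FPKM in DCKO and 26.0 and 14.4 FPKM in controls. Both are themselves on the olfactory sensory neuron list. For both, control replicate 1 was above control replicate 2, as it was for Omp and Cnga2. In DCKO, however, Gng13 was near its level in control replicate 1. Omp was at 31.5 and 20.3 FPKM in DCKO against 98.4 FPKM in control replicate 1, and Cnga2 at 0.206 and 0.212 FPKM against 10.2 FPKM. Rgs5, a marker of pericytes, stood at 31.8 and 37.9 FPKM in DCKO and 41.2 and 35.6 FPKM in controls, with overlapping groups.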
